A study of Mus musculus with 18 samples.

Results

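The genes described here encode the cytosolic translation initiation and elongation factors of the mouse, the proteins that load a ribosome onto an mRNA, find its start codon and drive the addition of amino acids. They were taken from the GENCODE M21 annotation as the protein-coding genes whose symbol begins with Eif or Eef. Kinases named Eif2ak and methyltransferases named Eef1akmt were left out, as were Eif6, Eif1ax, Eif2s3x, Eif2s3y and Eef1e1, which left 56 of 69 such genes among 53458 genes measured. Bone marrow cells of C57BL/6 mice were sorted by flow cytometry into 3 populations, and total RNA of each was amplified and sequenced. Haematopoietic stem cells (HSC) carried the gate CD150+ CD48- within Lin- Sca-1+ c-kit+ cells. The preMegE are progenitors of megakaryocytes and erythrocytes and the preCFU-E are progenitors committed to the erythroid lineage. Each population came from Ptbp1 -/- mice (KO) and from Ptbp1 fl/fl mice (WT), with 3 biological replicates in each of the 6 groups: HSC KO, HSC WT, preMegE KO, preMegE WT, preCFU-E KO and preCFU-E WT. Ptbp1 encodes a polypyrimidine tract binding protein that acts on splicing. The labels do not name the Cre driver, the age of the mice or their number per library.

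Initiation begins when eIF2 brings the initiator tRNA to the small ribosomal subunit, where eIF1, eIF1A, eIF3 and eIF5 gather around it. The eIF4 factors bind the cap of the mRNA and unwind its leader, and the complex scans for a start codon. After the subunits join with the help of eIF5B, eEF1A delivers each aminoacyl-tRNA and eEF2 moves the ribosome along. The supply of these factors is controlled at several known points: eIF2B recharges eIF2 with GTP and is blocked when eIF2 is phosphorylated under stress, 4E-binding proteins hold back the cap-binding protein eIF4E when mTOR is inactive, and the kinase encoded by Eef2k switches eEF2 off. Adult HSC are known for a low rate of protein synthesis, and erythroid progenitors for a high one.

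The libraries held 15956408 to 29226287 estimated read counts, of which 12.7% to 33.5% were mitochondrial ribosomal RNA. Ptbp1 checked the labels: it averaged 98.1 ± 8.83 CPM (gene counts scaled to a common library size) in HSC KO and 208 ± 12.5 in HSC WT, 203 ± 25.4 in preMegE KO and 693 ± 95.8 in preMegE WT, and 306 ± 10.5 in preCFU-E KO and 1244 ± 117 in preCFU-E WT (SD, n = 3 each). Its paralog Ptbp2 was higher in KO in each population, at 115 ± 19.5 against 56.0 ± 10.3, 82.7 ± 7.42 against 17.8 ± 2.04 and 139 ± 7.90 against 10.04 ± 2.01 CPM in the order HSC, preMegE and preCFU-E. Summed erythroid markers spanned 41.7 to 99.6 CPM across HSC libraries, 1197 to 1362 CPM across preMegE and 5412 to 6823 CPM across preCFU-E, and summed HSC markers spanned 1462 to 1821, 879 to 1029 and 689 to 855 CPM in that order. By genotype, the HSC markers summed to 1462 to 1743 CPM in HSC KO and 1752 to 1821 CPM in HSC WT, without overlap. Summed megakaryocyte markers were 147 to 234 CPM in HSC KO and 138 to 178 CPM in HSC WT. They were lower in KO without overlap in preMegE, at 59.4 to 102 against 119 to 144 CPM. The same held in preCFU-E, at 10.57 to 11.05 against 14.01 to 17.58 CPM. Among markers outside these lineages, Nkg7 and the granulocyte and monocyte markers were higher in preMegE, but other sets were not. Summed macrophage markers reached 16.79 CPM in HSC and 7.998 CPM in preMegE. Summed stroma and endothelium markers reached 16.42 and 0.9695 CPM in that order, and summed B cell markers overlapped between HSC and preMegE. Nkg7 lay between 203 and 275 CPM in the 6 preMegE libraries, whereas the T cell markers Cd3e and Cd3g stayed at or below 1.75 CPM. The 5 granulocyte and monocyte markers summed to 32.6 to 62.1 CPM in preMegE, most of it Mpo at 29.8 to 55.1 CPM, at most 22.2 CPM in HSC and at most 13.98 CPM in preCFU-E. The part of these markers in the results was not tested. Xist, transcribed from the silenced X chromosome of females, lay between 6434 and 8617 CPM in HSC libraries and at or below 1.09 CPM in the 12 progenitor libraries. In addition, the median difference between the length and the effective length of long transcripts, which follows the size of the sequenced fragments, was 291 to 308 bases in the HSC libraries and 157 to 255 bases in the progenitor libraries. Sex, fragment size and population therefore cannot be told apart in any comparison of progenitors with HSC. The library HSC KO 2 stood apart from the others on the third principal component of all genes and preMegE KO 1 on the fourth.

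Together the factors took 1.46% to 1.72% of protein-coding reads in HSC KO and 1.55% to 1.59% in HSC WT. The share was 2.41% to 2.71% in preMegE KO and 2.38% to 2.68% in preMegE WT, and 3.06% to 3.15% in preCFU-E KO and 2.99% to 3.2% in preCFU-E WT. The genotypes overlapped in each population, and the populations did not overlap with each other. In bulk RNA, a change in the mixture of cells and a change in the RNA of each cell cannot be told apart. Eef1a1, which encodes the carrier of aminoacyl-tRNA, was the most abundant member at 1565, 1412, 2948, 3160, 2839 and 3335 TPM (transcript reads corrected for length and scaled to a fixed total) on average in HSC KO, HSC WT, preMegE KO, preMegE WT, preCFU-E KO and preCFU-E WT. Its paralog Eef1a2 had no read in any of the 18 libraries, and Eif4ebp3 and Eif4e1b reached at most 0.654 and 2.51 CPM. All 55 members other than Eef1a2 passed the filter on low counts, 52 of them with a mean of at least 10 CPM. Some reads could not be assigned to one gene: 12 members shared at least 20% of their 31-base words with other genes, among them Eef1a1 with 49.0% and Eif3j2 with 94.9%, and 14 members overlap an exon of a gene on the opposite strand, with the strand setting of the counting not given in the sources used here.

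**Figure D1:**
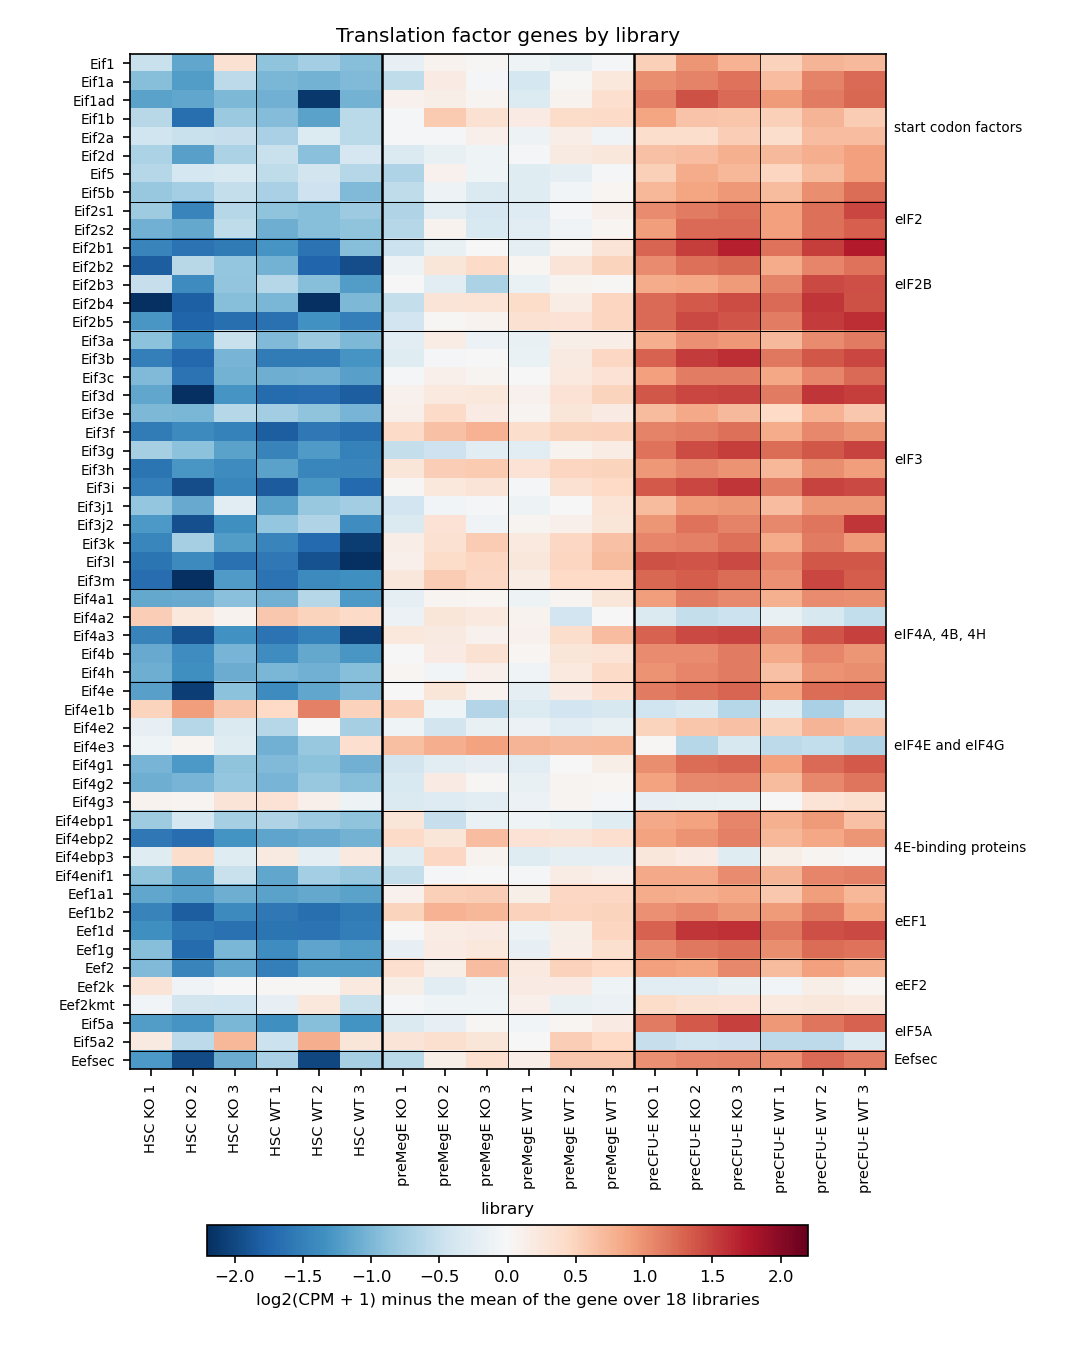
Level of each of the 55 expressed translation factor genes (rows, grouped by role) in each of the 18 libraries (columns), coloured as log2(CPM + 1) minus the mean of the gene over the 18 libraries. Most rows run from blue in the 6 HSC libraries through pale in preMegE to red in preCFU-E, in KO and WT alike, while Eif4a2 and Eif4e1b run the other way, Eif5a2 is lowest in preCFU-E and Eif4e3 is highest in preMegE.

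The first question was whether loss of Ptbp1 changed these genes within a population. No member passed an adjusted p of 0.05 in edgeR's quasi-likelihood test across 21565 genes in HSC, where 0.844% of all genes were called, in preMegE, where 0.0603% were called, or in preCFU-E, where 0.153% were called. At an unadjusted p under 0.05 6 members were found in HSC and 2 each in preMegE and preCFU-E, beside 13.7%, 4.92% and 3.68% of all genes. The median log2 change of the 55 members, KO over WT, was 0.02 for HSC, -0.08 for preMegE and 0.02 for preCFU-E, and the values over all genes were 0.01, 0.01 and 0. In preMegE 39 of 55 members had a negative value, beside 10386 of all 21565 genes, and in HSC and preCFU-E 24 and 23 members did. The members were measured in the same libraries, so these counts are not a test. The 95% intervals of the 52 members with at least 10 CPM lay between -1.35 and 1.12 for HSC, between -1.19 and 0.59 for preMegE and between -0.93 and 0.86 for preCFU-E. Changes within these bounds could not be resolved with 3 libraries against 3 for every member. Eef1a1 averaged 1858 ± 90.7 CPM in HSC KO and 1834 ± 39.3 CPM in HSC WT, with log2 changes of 0.02, 0.04 and 0.07 in HSC, preMegE and preCFU-E (SE 0.12 each).

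**Figure D2:**
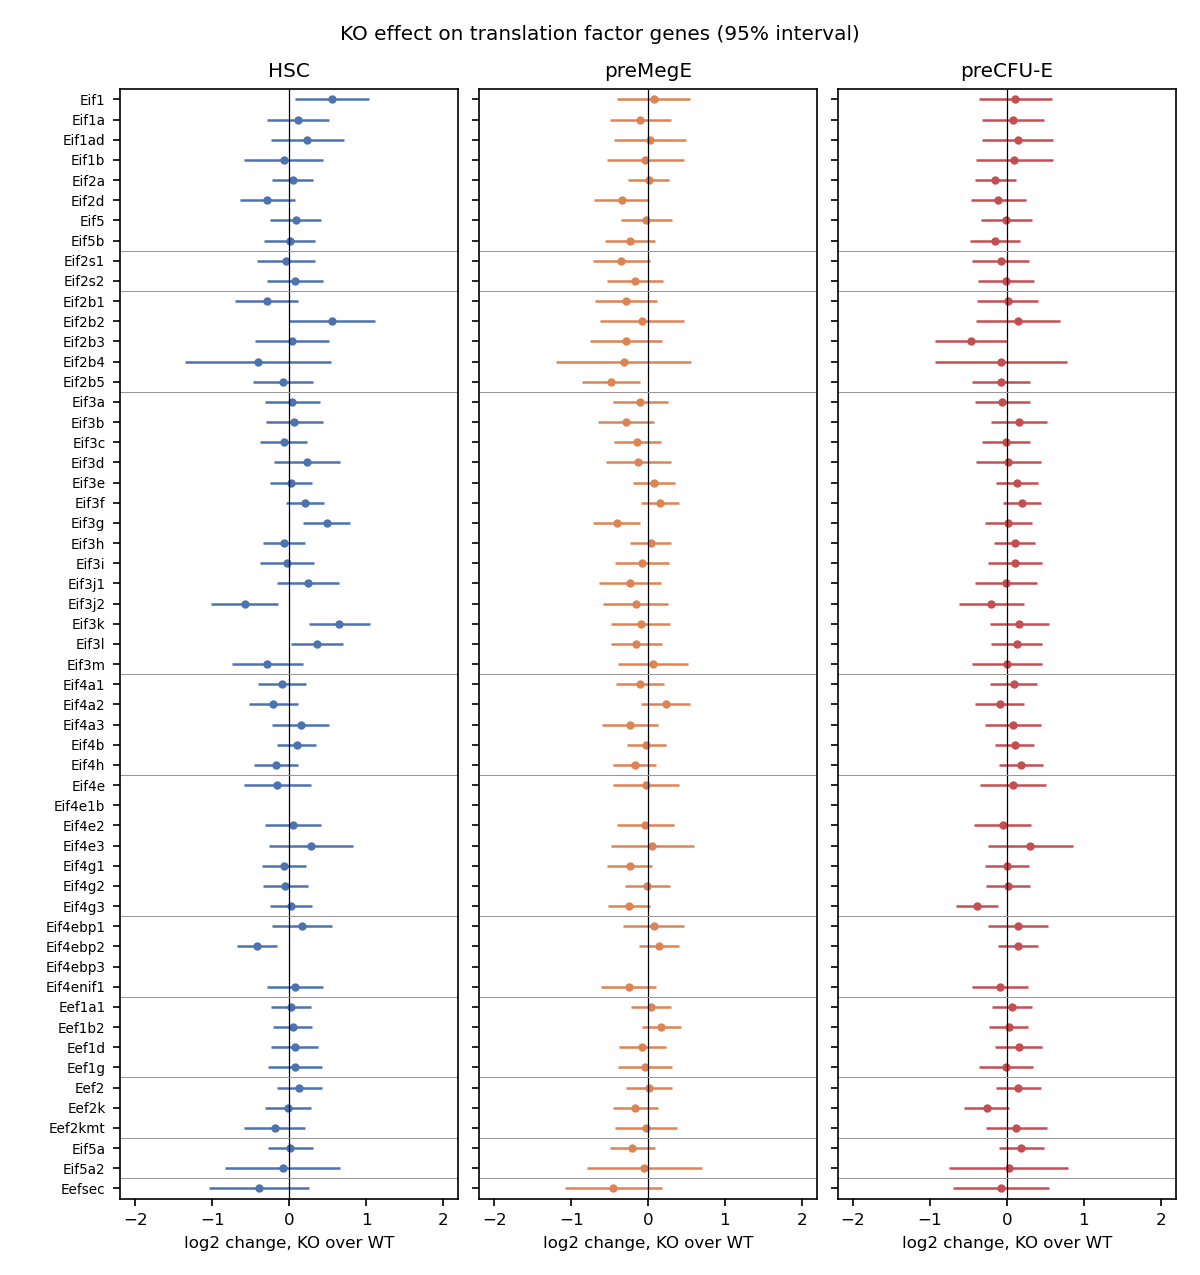
Log2 change, KO over WT, of the translation factor genes in HSC (left), preMegE (middle) and preCFU-E (right), with 95% intervals from edgeR and 3 libraries per group; Eif4e1b and Eif4ebp3, with wide intervals, are not drawn. Points lie close to 0 in each panel, and none passed an adjusted p of 0.05.

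The members nearest to a call are named here after their values were seen. In HSC they include 4 genes of eIF3, the large scaffold that links the small subunit to the eIF4 factors, 3 higher and 1 lower in KO at an unadjusted p under 0.05. Eif3k had 23.2, 38.4 and 26.8 CPM in HSC KO and 22.8, 18.9 and 14.4 CPM in HSC WT. All 3 KO libraries were above all 3 WT libraries, by 0.65 on the log2 scale (SE 0.19, adjusted p = 0.110 in edgeR). Eif3g had 64.9, 56.9 and 47.0 CPM in HSC KO and 38.3, 44.6 and 37.7 CPM in HSC WT, again without overlap (log2 change 0.49, SE 0.15, adjusted p = 0.134 in edgeR). Eif3j2 went the other way, with 22.4, 13.7 and 21.0 CPM in HSC KO and 30.1, 34.4 and 20.7 CPM in HSC WT, overlapping groups (log2 change -0.58, SE 0.21, adjusted p = 0.206 in edgeR). Eif3l was the remaining one, with 52.6, 61.1 and 51.7 CPM in HSC KO and 54.0, 42.3 and 32.3 CPM in HSC WT, also overlapping. In preMegE the order was the opposite for Eif3g, with 74.9, 78.2 and 92.0 CPM in KO and 90.7, 114 and 120 CPM in WT, groups that overlapped (log2 change -0.41, SE 0.15, adjusted p = 0.904 in edgeR). The difference between the HSC and the preMegE effect was tested as an interaction in edgeR, and no member passed it, beside 0.0325% of all genes. At an unadjusted p under 0.05 there were 4 members, beside 8.15% of all genes, and in DESeq2 Eif3g passed. The difference between the preCFU-E and the preMegE effect had 0 members by either count, beside 0% of all genes adjusted and 2.62% unadjusted. Eif4ebp2, which encodes a repressor of eIF4E, had 113, 105 and 135 CPM in HSC KO and 150, 157 and 165 CPM in HSC WT. Each KO library was below each WT library (log2 change -0.42, SE 0.13, adjusted p = 0.125 in edgeR). Eif1, a guardian of start codon choice, had 63.9, 40.5 and 115 CPM in HSC KO and 48.3, 53.5 and 46.7 CPM in HSC WT, so its fitted change of 0.56 (SE 0.23, adjusted p = 0.283 in edgeR) came with KO libraries on both sides of WT.

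Calls of these genes in HSC depended on single libraries and on the tool. Eif3k was called by DESeq2, without a filter on low counts, and without HSC KO 1. Eif1 was called without HSC KO 2, Eif3g and Eif4ebp2 without HSC KO 3, and Eif4e3 without HSC WT 3. Counting groups without overlap, 3 members were higher in HSC KO (Eif3f, Eif3g and Eif3k) and 2 lower (Eif4ebp2 and Eif4h), beside 5.80% and 6.31% of all genes.

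In the progenitors, the scaffold Eif4g3 was the member with the same order in both. It had 92.1, 94.0 and 95.8 CPM in preMegE KO and 104, 120 and 112 CPM in preMegE WT, and 102, 103 and 104 CPM in preCFU-E KO and 116, 142 and 148 CPM in preCFU-E WT. KO and WT did not overlap in either progenitor, with log2 changes of -0.25 and -0.39 (SE 0.13 each, adjusted p = 1.00 and 0.807 in edgeR). The eIF2B subunit gene Eif2b3 had 40.9, 41.5 and 44.5 CPM in preCFU-E KO and 49.6, 63.5 and 62.3 CPM in preCFU-E WT, groups that did not overlap (log2 change -0.47, SE 0.22, adjusted p = 1.00 in edgeR). When the 6 preCFU-E libraries were fitted alone, Eif4g3 and Eif2b3 were called lower in KO. Another eIF2B subunit gene, Eif2b5, had 20.9, 29.1 and 30.1 CPM in preMegE KO and 36.2, 35.5 and 39.9 CPM in preMegE WT, without overlap (log2 change -0.48, SE 0.18, adjusted p = 0.912 in edgeR). Without overlap, 0 members were higher and 3 lower in preMegE KO, beside 6.02% and 6.24% of all genes, and 3 were higher and 3 lower in preCFU-E KO, beside 6.62% and 7.41%.

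The second question was how the factors changed along the path from HSC to preMegE to preCFU-E. In WT preMegE over WT HSC, edgeR called 46 of 55 members higher and 2 lower, where 25.5% of all genes were higher and 28.2% lower (53.7% in either direction). The median log2 change was 1.21 for the members and -0.43 for all genes. In WT preCFU-E over WT preMegE, 45 members were higher and 1 lower, where 15.6% of all genes were higher and 11.2% lower (26.8% in either direction), with medians of 0.88 and -0.18. The sex of the mice and the fragment size differ along with the first step, and their part in it cannot be told apart from that of the population. In WT 43 members were higher in both steps and 48 in at least 1, and the 7 that were higher in neither were Eef2k, Eef2kmt, Eif4a2, Eif4e1b, Eif4ebp3, Eif4g3 and Eif5a2. The negative medians of all genes set the scale: other choices of scaling moved the median of all genes between -0.50 and -0.30 in the first step and between -0.21 and -0.15 in the second. The KO populations gave 45 members higher and 1 lower in preMegE KO over HSC KO, where 25.4% of all genes were higher and 27.3% lower (52.7% in either direction), and 46 higher and 2 lower in preCFU-E KO over preMegE KO, where 18.4% were higher and 17.6% lower (36.1%). These comparisons share no library with the WT comparisons. The first step was called higher in both genotypes for 45 members, and the second step also for 45.

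**Figure D3:**
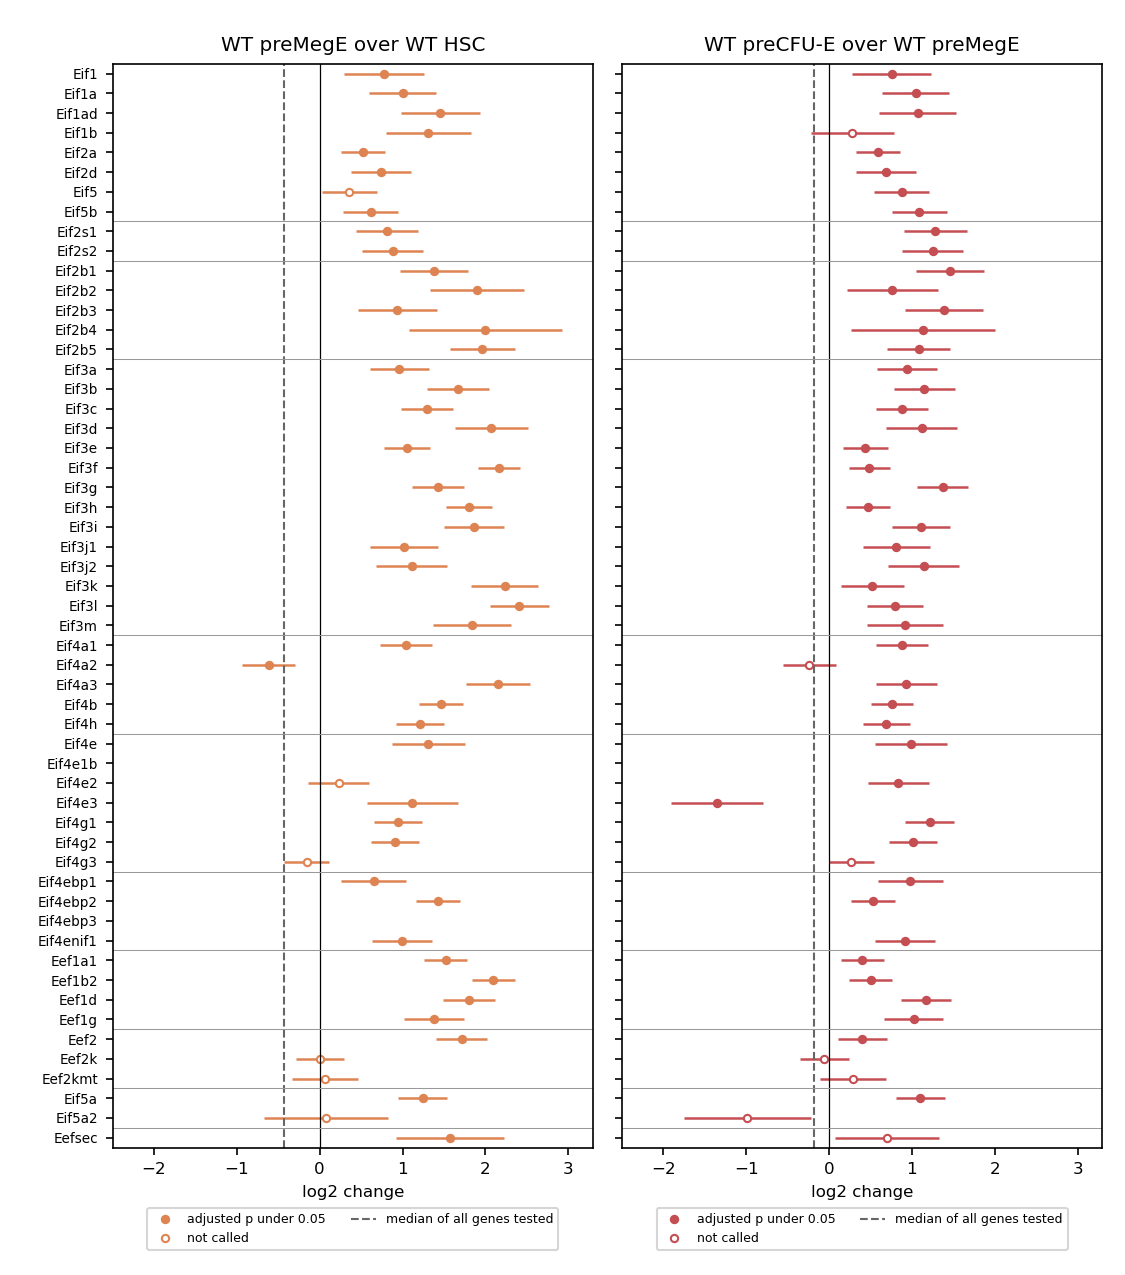
Log2 change of each translation factor gene in WT preMegE over WT HSC (left) and WT preCFU-E over WT preMegE (right), with 95% intervals from edgeR and 3 libraries per group; filled points passed an adjusted p of 0.05, the dashed line is the median of all genes tested, and Eif4e1b and Eif4ebp3 are not drawn. Most points lie to the right of 0, with Eif4a2 on the left in the first step and Eif4e3 on the left in the second.

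The elongation factors of the eEF1 group rose in both steps. Eef1a1 had 4514, 5621 and 5642 CPM in WT preMegE and 1809, 1879 and 1813 CPM in WT HSC. These groups lay far apart (log2 change 1.52, SE 0.13, adjusted p = 6.39e-09 in edgeR). It had 6193, 7786 and 6834 CPM in WT preCFU-E, a smaller change of 0.40 over WT preMegE (SE 0.12, adjusted p = 0.0198 in edgeR). That second call was lost with length-scaled counts, with no filter, with only the compared libraries, and without preMegE WT 1 or any 1 of the preCFU-E WT libraries (0.245 to 0.396). Eef1b2, a subunit of the exchange factor that recharges eEF1A, had 402, 388 and 396 CPM in WT preMegE against 94.2, 88.2 and 94.6 CPM in WT HSC (log2 change 2.10, SE 0.13, adjusted p = 7.53e-11 in edgeR). Of the other exchange factor subunits, Eef1d rose by 1.80 and then by 1.17 and Eef1g by 1.38 and then by 1.02 on the log2 scale. Eef2, the translocase, had 1937, 2355 and 2262 CPM in WT preMegE against 586, 705 and 709 CPM in WT HSC (log2 change 1.71, SE 0.15, adjusted p = 8.63e-09 in edgeR). Its second step of 0.40 passed narrowly (SE 0.14, adjusted p = 0.0406 in edgeR) and was not called when any 1 of the 6 libraries was left out. The genes that act on eEF2 did not follow it. Eef2k had 71.5, 71.6 and 58.8 CPM in WT preMegE and 63.9, 64.4 and 72.9 CPM in WT HSC, overlapping groups with a log2 change of 0.01 (SE 0.14), and Eef2kmt, which encodes a methyltransferase of eEF2, changed by 0.06 (SE 0.19). Neither passed the test in the second step, at -0.06 and 0.29. The hypusine-carrying factor Eif5a had 453, 485 and 533 CPM in WT preMegE against 185, 246 and 190 CPM in WT HSC (log2 change 1.24, SE 0.14, adjusted p = 4.94e-07 in edgeR) and then rose by 1.10 to 919, 1073 and 1161 CPM in WT preCFU-E. Its paralog Eif5a2 had 6.02, 9.19 and 8.43 CPM in WT preMegE and 3.996, 11.2 and 7.35 CPM in WT HSC, and 3.68, 3.64 and 4.62 CPM in WT preCFU-E, with a second step of -0.99 (SE 0.37, adjusted p = 0.0510 in edgeR). It passed in DESeq2, with no filter, with only the compared libraries and without preMegE WT 1. Eefsec, the factor that inserts selenocysteine, rose in the first step by 1.57 (SE 0.31, adjusted p = 0.000316 in edgeR), and its second step of 0.69 did not pass (adjusted p = 0.0979) but did in limma-voom, with the replicate block and with only the compared libraries.

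The 14 eIF3 genes all passed in both steps, with median log2 changes of 1.74 and 0.90. Of the subunits given here, second-step calls were lost for Eif3k in 7 alternatives, including 5 of 6 that leave out a compared library, for Eif3e in 4 and for Eif3f in 3. The group includes the members with the largest first-step rises. Eif3l had 194, 226 and 265 CPM in WT preMegE against 54.0, 42.3 and 32.3 CPM in WT HSC, the largest rise of a member in that step (log2 change 2.41, SE 0.17, adjusted p = 5.96e-10 in edgeR). Eif3f had 205, 223 and 226 CPM in WT preMegE against 44.1, 52.5 and 49.1 CPM in WT HSC (log2 change 2.17, SE 0.12, adjusted p = 3.64e-11 in edgeR). Eif3k rose by 2.24, Eif3d by 2.07, Eif3i by 1.86 and Eif3m by 1.84, and the smallest first-step change of the group was that of Eif3a, the core subunit, at 0.96. The subunits thus differed in how much of their rise fell in which step. Eif3f, Eif3h, Eif3e and Eif3k rose by 0.49, 0.47, 0.44 and 0.52 in the second step, and Eif3g by 1.37 and Eif3b by 1.15. Eif3g had 254, 280 and 304 CPM in WT preCFU-E against 90.7, 114 and 120 CPM in WT preMegE, with no overlap. The loosely bound subunit eIF3j has 2 copies in the mouse that share most of their sequence: Eif3j1 rose by 1.01 and 0.81 and Eif3j2 by 1.11 and 1.14, and reads of one could be counted for the other.

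The eIF2 and eIF2B genes, which supply the initiator tRNA, also passed in both steps, but 2 of the second-step calls depended on the processing. That of Eif2b4 was lost with length-scaled counts, with no filter and without any 1 of the 6 libraries, and that of Eif2b2 in 8 alternatives, including the replicate block (0.767) and 5 of the 6 that leave out a compared library (0.594 to 0.769). Eif2s1, the subunit phosphorylated under stress, had 316, 391 and 468 CPM in WT preCFU-E against 138, 163 and 182 CPM in WT preMegE (log2 change 1.28, SE 0.18, adjusted p = 1.56e-05 in edgeR), and Eif2s2 rose by 1.25 in that step. Their first-step changes were smaller, at 0.81 and 0.88. Eif2b5, the catalytic subunit, had 36.2, 35.5 and 39.9 CPM in WT preMegE against 8.49, 10.7 and 9.42 CPM in WT HSC (log2 change 1.96, SE 0.19, adjusted p = 5.15e-08 in edgeR). Eif2b2 rose by 1.90. Eif2b4 rose by 2.00 from few reads, with 10.7, 8.89 and 11.2 CPM in WT preMegE and 3.39, 0.851 and 3.42 CPM in WT HSC; with length-scaled counts its change was 0.66 and not called, and then below its second step. Eif2b1 and Eif2b3 had the largest called rises of all members in the second step, 1.46 and 1.39, and Eif2b1 reached 88.7, 111 and 131 CPM in WT preCFU-E against 33.2, 40.0 and 46.8 CPM in WT preMegE.

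Among the start codon factors, 7 of 8 were called higher in each step, with median log2 changes of 0.75 and 0.82. Eif1a, whose protein helps scanning, rose by 1.00 and 1.05, Eif1ad by 1.46 and 1.07, Eif2a by 0.52 and 0.59, and the subunit joining factor Eif5b by 0.62 and 1.09. Eif1ad is counted in this group, but whether its protein acts in start codon choice was not examined here. Eif5, which activates the GTPase of eIF2, had 288, 297 and 332 CPM in WT preMegE and 234, 259 and 223 CPM in WT HSC. The groups did not overlap, and the change of 0.36 missed the threshold (SE 0.16, adjusted p = 0.0621 in edgeR). It passed with length-scaled counts (0.55), with no filter, with only the compared libraries, with the replicate block and without preMegE WT 1. In WT preCFU-E it had 481, 559 and 645 CPM, a called rise of 0.88. In the second step Eif1 had 129, 152 and 148 CPM in WT preCFU-E against 84.9, 80.7 and 88.1 CPM in WT preMegE (log2 change 0.76, SE 0.23, adjusted p = 0.0177 in edgeR). The call was lost with no filter and without preMegE WT 1, preMegE WT 2, preCFU-E WT 2 or preCFU-E WT 3 (0.661 to 0.718). Its close relative Eif1b had 29.8, 34.7 and 30.6 CPM in WT preCFU-E and 23.3, 27.4 and 27.6 CPM in WT preMegE and did not pass (log2 change 0.28, SE 0.24, adjusted p = 0.435 in edgeR), and the difference between the paralogs was not tested. The first-step rise of Eif1, 0.77 in CPM, became -0.03 when counts were scaled for the length of the transcripts in use. The TPM ratio of Eif1b to Eif1 averaged 0.459 ± 0.0758 in WT preMegE and 0.156 ± 0.0474 in WT HSC (SD, n = 3 each).

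The cap-binding group held the members that ran against the rest. Eif4a1, the main RNA helicase of the group, had 308, 349 and 405 CPM in WT preMegE against 161, 217 and 140 CPM in WT HSC, and 576, 692 and 680 CPM in WT preCFU-E (log2 changes 1.04 and 0.87, SE 0.15 each, adjusted p = 1.05e-05 and 0.000131 in edgeR). Its paralog Eif4a2 had 249, 175 and 234 CPM in WT preMegE against 359, 334 and 315 CPM in WT HSC, and fell by 0.61 (SE 0.15, adjusted p = 0.00251 in edgeR). All 3 WT preMegE libraries were below the WT HSC libraries. In WT preCFU-E it had 211, 185 and 163 CPM, a second step of -0.24 that did not pass (adjusted p = 0.289 in edgeR) except with only the compared libraries (-0.38). Beside it, the median of all genes in the first step was -0.43. In KO, Eif4a2 had 215, 283 and 275 CPM in preMegE KO and 346, 278 and 250 CPM in HSC KO, overlapping groups (log2 change -0.18, SE 0.15, adjusted p = 0.340 in edgeR), and 190, 163 and 171 CPM in preCFU-E KO (log2 change -0.56, SE 0.15, adjusted p = 0.00702 in edgeR). The difference between the genotypes in the first step did not pass its own test (0.44, SE 0.22, adjusted p = 0.620 in edgeR). Reads of the helicase genes are not fully their own: Eif4a1 shares 31.1% of its 31-base words with other genes, and Eif4a2 overlaps an exon of Rfc4 on the opposite strand. Both overlap exons of genes on their own strand, for Eif4a2 those of Snora81 and Snord2 among others. The TPM ratio of Eif4a2 to Eif4a1 was 1.29 to 2.02 in HSC KO and 1.57 to 2.23 in HSC WT, 0.573 to 0.606 in preMegE KO and 0.409 to 0.700 in preMegE WT, and 0.192 to 0.245 in preCFU-E KO and 0.209 to 0.341 in preCFU-E WT. By the TPM of the whole gene, Eif4a2 was thus above Eif4a1 in the 6 HSC libraries and below it in the 12 progenitor libraries, in both genotypes. This TPM includes transcripts with a retained intron, which are 15 of the 25 annotated for Eif4a2 and 4 of the 13 for Eif4a1. The ratio is therefore not one of coding mRNA. The third relative, Eif4a3, a core protein of the exon junction complex, rose with most members, by 2.15 and 0.93, and Eif4b and Eif4h, which stimulate the helicase, rose by 1.46 and 1.21 and then by 0.76 and 0.69.

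**Figure D4:**
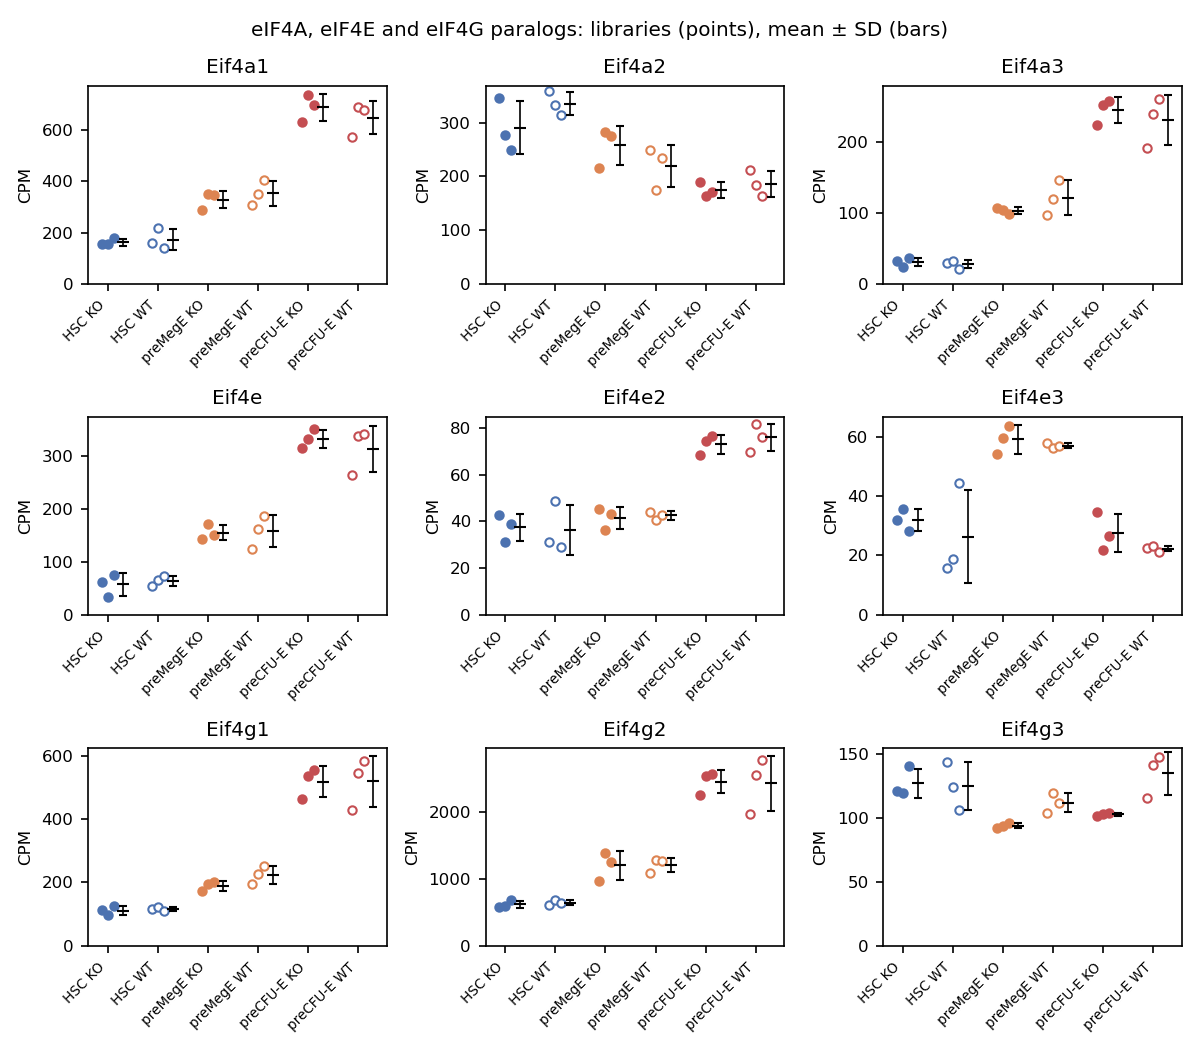
CPM of the eIF4A, eIF4E and eIF4G paralogs in each library (filled points KO, open points WT), with the mean and SD of each group of 3; each panel has its own linear axis from 0. Eif4a1, Eif4a3, Eif4e, Eif4g1 and Eif4g2 climb from HSC to preCFU-E, Eif4a2 declines, Eif4e3 peaks in preMegE at 54.2 to 63.9 CPM, and Eif4g3 lies between 92.1 and 148 CPM.

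Differences among the other paralogs of the cap-binding group were not tested. The cap-binding protein gene Eif4e had 125, 162 and 186 CPM in WT preMegE against 53.9, 64.5 and 72.4 CPM in WT HSC (log2 change 1.31, SE 0.21, adjusted p = 3.66e-05 in edgeR) and then rose by 0.99. Eif4e2, whose protein competes for the cap and represses, had 44.1, 40.6 and 42.8 CPM in WT preMegE and 31.1, 48.7 and 28.9 CPM in WT HSC. These groups overlapped (log2 change 0.23, SE 0.18, adjusted p = 0.270 in edgeR), and it rose by 0.84 in the second step. Its first step was 1.14 and called with length-scaled counts, and 0.52 and called without HSC WT 2. Eif4e3 had 22.6, 23.1 and 21.3 CPM in WT preCFU-E against 57.9, 56.2 and 56.9 CPM in WT preMegE, and fell by 1.35 (SE 0.27, adjusted p = 0.000512 in edgeR), the only member called lower in that step. In WT HSC it had 15.8, 18.7 and 44.4 CPM, 1 library far above the other two, and the first-step rise was 1.12 (SE 0.26, adjusted p = 0.00149 in edgeR). Eif4e1b, an oocyte form, had at most 2.51 CPM, and its first-step call was lost with length-scaled counts and without HSC WT 2, preMegE WT 2 or preMegE WT 3. The scaffold Eif4g1 had 194, 226 and 250 CPM in WT preMegE against 117, 122 and 110 CPM in WT HSC and 428, 545 and 582 CPM in WT preCFU-E (log2 changes 0.95 and 1.21, SE 0.14 each), and Eif4g2, which lacks the eIF4E-binding part, rose by 0.91 and 1.01. Eif4g3 did not pass in either step, at -0.16 and 0.27 (SE 0.13 each). The TPM ratio of Eif4g3 to Eif4g1 averaged 1.15 ± 0.188 in HSC KO and 0.968 ± 0.241 in HSC WT, 0.398 ± 0.0237 in preMegE KO and 0.402 ± 0.0381 in preMegE WT, and 0.167 ± 0.00363 in preCFU-E KO and 0.210 ± 0.0121 in preCFU-E WT (SD, n = 3 each). The 3 KO ratios of preCFU-E, 0.171, 0.165 and 0.165, lay below the 3 WT ratios, 0.212, 0.220 and 0.197.

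Of the inhibitors, Eif4ebp2 rose by 1.43 and 0.53 and Eif4ebp1 by 0.65 and 0.98 in the WT steps; with length-scaled counts the second step of Eif4ebp2 was 0.56 and not called. Eif4ebp1 had 24.8, 23.9 and 21.8 CPM in WT preMegE against 16.3, 14.7 and 13.8 CPM in WT HSC, without overlap, and its TPM ratio to Eif4ebp2 averaged 0.166 ± 0.00664 in WT preMegE and 0.191 ± 0.0405 in WT HSC. These Eif4ebp1 values are of the whole gene and include a noncoding transcript. Its coding transcript alone was lower in WT preMegE than in WT HSC, as given below. Eif4enif1, which carries eIF4E into the nucleus, rose by 0.99 and 0.91.

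Of 38 measured cytosolic partners and modifiers, such as release factors, poly(A)-binding proteins and the enzymes that modify eEF2 and eIF5A, none was called between KO and WT in any population. In the WT steps 20 were higher and 2 lower, and then 16 higher and 2 lower, with median log2 changes of 0.81 and 0.70, beside 25.5% of all genes higher and 28.2% lower and then 15.6% higher and 11.2% lower. Of 10 mitochondrial translation factors none was called between KO and WT, and 6 were higher and 1 lower and then 7 higher in the WT steps (medians 0.62 and 0.88).

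Promoter sequences are given because the members moved together. They are those of the helicase paralogs, whose gene counts moved in opposite directions in the first WT step, and of the eIF3 gene with the smallest p in that step. They come from RefSeq on GRCm38.p6, run from 220 or 80 bases before to 20 bases after the start of transcription, and carry the motif matches in capitals. The Eif4a1 stretch is chr11:69672404-69672643 on the minus strand, and its capitals are an E-box. The Eif4a2 stretch, chr16:23107248-23107487 on the plus strand, held none of the motifs searched. The Eif3f stretch is chr7:108934335-108934434 on the plus strand, and its capitals are the E-box, a TATA box and the pyrimidine run that begins at the first transcribed base.
Eif4a1: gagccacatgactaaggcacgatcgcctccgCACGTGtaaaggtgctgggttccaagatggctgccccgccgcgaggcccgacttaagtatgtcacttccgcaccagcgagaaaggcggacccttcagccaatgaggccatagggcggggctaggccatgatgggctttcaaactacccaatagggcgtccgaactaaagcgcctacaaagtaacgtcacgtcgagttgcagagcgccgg
Eif4a2: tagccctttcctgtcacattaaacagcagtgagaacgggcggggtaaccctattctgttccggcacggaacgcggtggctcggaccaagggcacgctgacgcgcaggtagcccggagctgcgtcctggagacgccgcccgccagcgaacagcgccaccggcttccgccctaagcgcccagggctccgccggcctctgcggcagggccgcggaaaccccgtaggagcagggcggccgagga
Eif3f: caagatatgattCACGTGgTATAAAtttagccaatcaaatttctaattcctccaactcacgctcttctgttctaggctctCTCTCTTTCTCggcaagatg

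Motifs were counted on both strands in windows of 300 bases, 250 before and 50 after a start, for 57 windows of the 43 members with an entry and for all 32851 windows. CACGTG stood in 14 member windows (24.6%) of 12 genes and in 7.15% of all windows. The ETS-type motif CCGGAAG stood in 18 member windows (31.6%) of 15 genes and in 8.86% of all windows. The GATA-type motif AGATAA stood in 1 member window (1.75%), that of Eif3c, and in 11.2% of all windows, and TATAAA in 4 member windows (7.02%) and in 13.6%. A C followed by 4 pyrimidines at the first transcribed bases, the start of the terminal oligopyrimidine motif of many translation genes, was found in 1 member window, that of Eif3f, and in 2.51% of all windows; the annotated start decides this count. Member windows had a median GC content of 62.7% and all windows 52.7%, a difference in base composition that moves with these counts and whose part in them was not tested.

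The third question was whether the genes changed their transcripts, since the deleted protein acts on splicing. A test of transcript usage within the gene was possible for 31 members among 9361 genes. In HSC, KO against WT, 2 members passed, where 4.36% of all genes did, and none passed in preMegE or preCFU-E, where 0.139% and 0.235% did. The first was Eif4g1, with an adjusted p of 0.0102 in edgeR's Simes test. Its protein-coding transcript Eif4g1-203 had 11.0, 0 and 0 TPM in HSC KO and 11.2, 18.6 and 18.5 TPM in HSC WT. The transcripts Eif4g1-201 and Eif4g1-202 had 0.396, 0 and 19.5 TPM and 0, 5.49 and 9.01 TPM in HSC KO, and both were at 0 TPM in the 3 HSC WT libraries. Each KO library thus used a different mixture. The second was Eif4a1, with an adjusted p of 0.0281 in edgeR's Simes test. Its transcript Eif4a1-201, annotated as a target of nonsense-mediated decay, had 3.29, 1.88 and 4.39 TPM in HSC KO against 0.591, 0.952 and 0.484 TPM in HSC WT. The groups did not overlap, but the transcript was a small part of the gene, whose main form Eif4a1-213 had 102, 91.7 and 136 TPM in HSC KO and 108, 128 and 88.5 TPM in HSC WT. Without any 1 of the HSC WT libraries neither gene was called, and without HSC KO 3 only Eif4g1 was. With limma's diffSplice, Eif1 and Eif4e2 passed in their place.

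More members changed their transcripts between populations. In WT preMegE over WT HSC 9 members passed, where 9.93% of all genes did, namely Eef2k, Eif2s2, Eif4a1, Eif4a2, Eif4a3, Eif4ebp1, Eif4g1, Eif5 and Eif5a. With limma's diffSplice 17 members were called, but the share of all genes called by that tool is not given here. In WT preCFU-E over WT preMegE none passed, where 0.15% of all genes did. Eif4a1-201 had 57.6, 96.2 and 130 TPM in WT preMegE against 0.591, 0.952 and 0.484 TPM in WT HSC (adjusted Simes p of the gene 5.94e-13 in edgeR). KO gave the same separation, with 79.8, 121 and 88.8 TPM in preMegE KO against 3.29, 1.88 and 4.39 TPM in HSC KO. The whole Eif4a1 gene had 193.4, 298.3 and 345.7 TPM in WT preMegE against 149.5, 183.2 and 120.3 TPM in WT HSC. Part of its first-step rise in TPM thus lay in Eif4a1-201. For Eif2s2 the transcript Eif2s2-205 was at 0 TPM in the 6 HSC libraries and at 4.57, 23.0 and 11.8 TPM in preMegE KO, 10.3, 20.8 and 28.4 TPM in preMegE WT, 33.9, 40.3 and 52.3 TPM in preCFU-E KO and 30.7, 60.2 and 39.1 TPM in preCFU-E WT (adjusted Simes p of the gene 3.00e-10 in edgeR for the first WT step). Fragment size differed in the same direction between HSC and progenitor libraries, as given above, and its part in these results was not tested.

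By annotated class, transcripts with a retained intron made up 11.6% ± 1.02 of the members' TPM in HSC KO and 12.9% ± 0.0301 in HSC WT, 5.67% ± 0.463 in preMegE KO and 5.99% ± 0.0555 in preMegE WT, and 5.88% ± 0.422 in preCFU-E KO and 6.76% ± 0.618 in preCFU-E WT (SD, n = 3 each). Over all protein-coding genes the share was 13.9%, 13.5%, 6.20%, 5.99%, 4.60% and 5.24% in that order. Transcripts annotated for nonsense-mediated decay had a higher share of the members' TPM in the progenitors, most of it in preMegE from Eef1b2-205. They made up 3.45% ± 0.632 in HSC KO and 3.92% ± 0.311 in HSC WT, 6.76% ± 0.473 in preMegE KO and 5.68% ± 0.478 in preMegE WT, and 5.44% ± 0.164 in preCFU-E KO and 4.88% ± 0.254 in preCFU-E WT. Over all protein-coding genes this share was highest in HSC, at 4.67% and 5.14% in HSC KO and HSC WT, and 3.91%, 3.72%, 3.13% and 3.24% in the progenitor groups. In both progenitors the 3 KO libraries had a higher such share than the 3 WT libraries (6.45% to 7.30% in preMegE KO and 5.23% to 6.18% in preMegE WT, 5.26% to 5.57% in preCFU-E KO and 4.72% to 5.18% in preCFU-E WT). The main contributor in preMegE was Eef1b2-205, with 106, 73.4 and 130 TPM in HSC KO, 88.6, 75.6 and 97.0 TPM in HSC WT, 358, 544 and 422 TPM in preMegE KO and 322, 435 and 426 TPM in preMegE WT. All members together had 5565, 5313 and 5257 TPM in HSC WT and 7600, 11900 and 11770 TPM in preMegE WT. In KO the members had 5838, 5096 and 6912 TPM in HSC and 8018, 10760 and 9514 TPM in preMegE. In WT the share without Eef1b2-205 was not higher in preMegE than in HSC. In KO that share overlapped between HSC and preMegE, with a higher mean in preMegE.

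Single cassette exons were followed as percent spliced in (PSI), the share of the TPM of transcripts spanning an exon that includes it. Among 7425 exons tested by limma, 49 belonged to 24 members. None was called between KO and WT in HSC, preMegE or preCFU-E, where 1.44%, 0.189% and 0.727% of all exons were. At an unadjusted p under 0.05 there were 4, 0 and 0 of the 49. The share of all exons at that level is not given here, so these counts cannot be set beside it. In WT preMegE over WT HSC 5 exons of 4 members were called, where 10.2% of all exons were, and none in WT preCFU-E over WT preMegE, where 0.0943% were. In the first WT step the members thus had about the same share of called exons as all genes. The exons that follow, shown with most of their sequences, are single cases and not a trait of the members.

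The largest change was in Eif4ebp1. Its 64-base exon at chr8:27266093-27266156, GRCm38, plus strand, belongs to the annotated processed transcript Eif4ebp1-202, which has no coding frame, and its PSI was 69.6%, 67.3% and 69.3% in WT preMegE against 4.09%, 3.92% and 16.02% in WT HSC. The change was 60.7 points (adjusted p = 8.80e-05 in limma). KO showed the same gap, with 58.4%, 66.7% and 63.7% in preMegE KO and 12.04%, 18.9% and 5.52% in HSC KO, and in preCFU-E it was 73.5%, 75.8% and 74.5% in KO and 76.2%, 77.0% and 79.5% in WT. The level of the coding transcript Eif4ebp1-201 was 6.61, 9.10 and 7.59 TPM in WT preMegE and 13.9, 11.5 and 10.8 TPM in WT HSC, lower in preMegE without overlap, so the first-step rise of the gene lay in the noncoding form.
Eif4ebp1 exon: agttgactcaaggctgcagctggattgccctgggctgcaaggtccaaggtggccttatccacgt

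Exons of Eif2d, Eif4g3 and Eif4e also went up. The 84-base coding exon of Eif2d, an initiation factor that can deliver tRNA without GTP, lies at chr1:131155168-131155251 on the plus strand of GRCm38 and keeps the frame. Its PSI was 96.6%, 97.8% and 98.2% in WT preMegE against 74.2%, 84.7% and 78.3% in WT HSC (18.5 points, adjusted p = 0.0174 in limma). The 116-base coding exon of Eif4g3 at chr4:138184652-138184767, plus strand, does not keep the frame, and its PSI was 96.7%, 99.8% and 99.2% in WT preMegE against 81.3%, 79.1% and 93.2% in WT HSC (14.1 points, adjusted p = 0.00918 in limma). In KO, inclusion of the Eif2d exon was 83.4%, 98.4% and 97.2% in preMegE and 78.6%, 59.5% and 79.8% in HSC, so preMegE KO 1 lay apart from the other progenitor libraries. Eif4e had 2 exons called. The 136-base exon at chr3:138533376-138533511 had a PSI of 32.6%, 37.6% and 35.2% in WT preMegE against 12.4%, 2.74% and 13.6% in WT HSC, and the 96-base exon rose by 26.6 points (adjusted p = 0.0162 and 0.0206 in limma). The Eif2d and Eif4e exons were not called without preMegE WT 2 or without preMegE WT 3, when 2 exons, those of Eif4ebp1 and Eif4g3, were left.
Eif2d exon: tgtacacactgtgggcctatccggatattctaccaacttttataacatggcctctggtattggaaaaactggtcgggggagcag
Eif4g3 exon: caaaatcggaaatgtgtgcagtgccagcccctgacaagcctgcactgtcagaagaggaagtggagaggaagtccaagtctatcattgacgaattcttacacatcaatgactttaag

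Eif4a2, the helicase gene that fell, had a 107-base exon that missed a call. In the transcript Eif4a2-204, annotated for nonsense-mediated decay, this exon brings in an in-frame stop codon near its start. The first 30 of its bases, chr16:23112351-23112380 on the plus strand of GRCm38, are shown with that stop codon in capitals. Its PSI was 36.2%, 27.5% and 25.3% in WT preMegE against 7.60%, 8.14% and 5.68% in WT HSC, groups that did not overlap (22.5 points, adjusted p = 0.0752 in limma; called with a larger offset on the logit scale). In WT preCFU-E it was 44.6%, 54.2% and 50.7%, and KO gave 11.2%, 0% and 9.82% in HSC, 44.5%, 17.0% and 27.8% in preMegE and 42.2%, 45.5% and 47.0% in preCFU-E.
Eif4a2 exon start: gagtcgaTAGcggcagttgatgacgagatg

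Of the exons near a call between KO and WT in HSC, Eif4h gave the tightest groups. The 60-base coding exon of this helper of eIF4A lies at chr5:134624441-134624500 on the minus strand of GRCm38 and keeps the frame. Its PSI was 10.7%, 12.7% and 9.87% in HSC KO and 15.5%, 21.4% and 26.0% in HSC WT, and the 3 KO libraries were below the 3 WT libraries (9.90 points lower, adjusted p = 0.271 in limma). In preMegE it was 20.2%, 13.3% and 9.03% in KO and 18.4%, 18.8% and 12.6% in WT, and in preCFU-E 11.9%, 12.9% and 13.04% in KO and 13.8%, 14.9% and 11.1% in WT, with overlap in both. The 57-base exon of Eif4g1 had a PSI of 85.0%, 0% and 35.7% in HSC KO and 95.5%, 100% and 87.5% in HSC WT, so the KO libraries spread widely, all below the WT range (54.1 points lower, adjusted p = 0.0761 in limma; called with the larger offset).
Eif4h exon: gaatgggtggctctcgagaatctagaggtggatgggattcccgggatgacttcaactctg

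**Figure D5:**
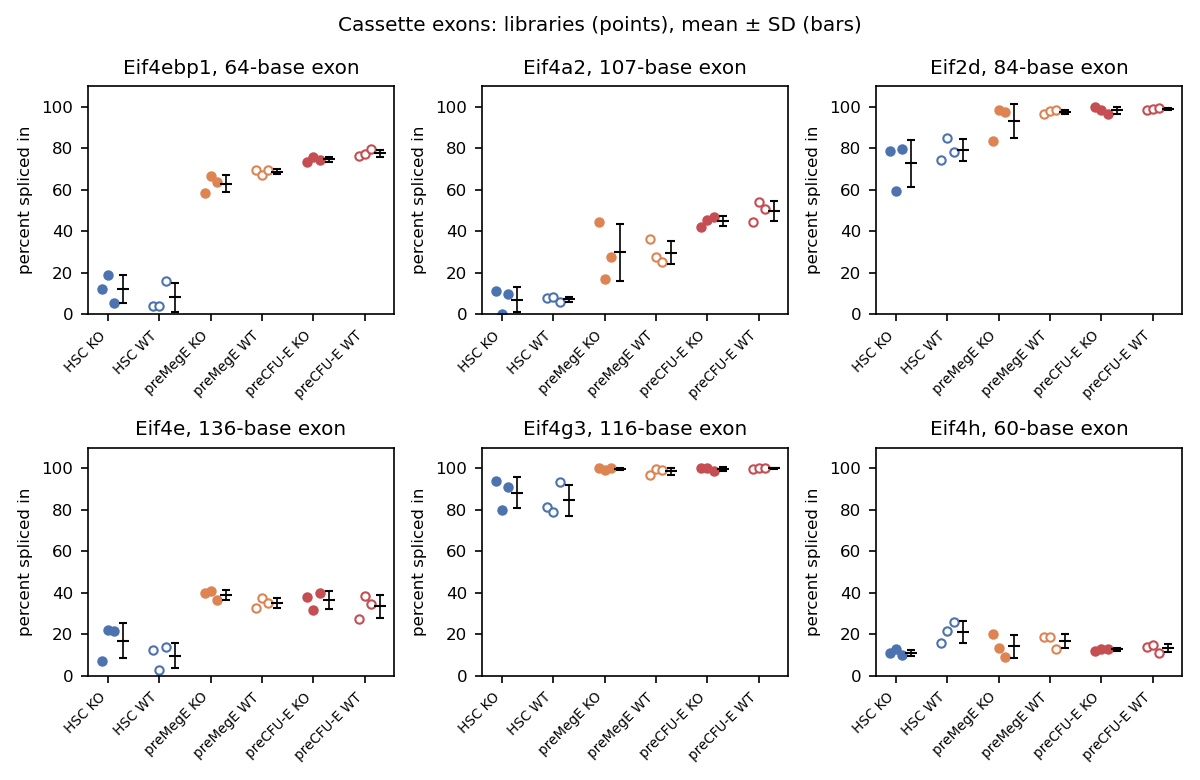
Percent spliced in of 6 cassette exons in each library (filled points KO, open points WT), with the mean and SD of each group of 3. The Eif4ebp1, Eif4a2 and Eif4e exons are low in both HSC groups and higher in both progenitors, the Eif2d and Eif4g3 exons lie above 96% in the progenitors except for Eif2d in preMegE KO 1 at 83.4%, and the Eif4h exon has its 3 HSC KO points below its 3 HSC WT points.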

How the data were processed

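RNA from 18 sorted populations was sequenced, and 1 table per sample of transcript-level values was deposited. The estimated counts and TPM deposited by the authors came from Salmon 0.12.0 with the builds mm10 and GRCm38.p6, per the submitters' processing notes; the strand setting is not given in the sources used here. Of 136288 transcripts, 136176 matched GENCODE M21; the 112 others held at most 0.084% of reads. Estimated counts were summed per gene, rounded to whole numbers and fitted in edgeR 4.0.16 (R 4.3.3), with TMM factors, its filter on low counts and robust quasi-likelihood dispersions, in 1 model of 18 libraries and 6 group means with 12 residual degrees of freedom. CPM use TMM-scaled library sizes. Calls used a Benjamini-Hochberg adjusted p under 0.05 over all 21565 genes. Transcript usage (edgeR's diffSpliceDGE with Simes' method) used transcripts with at least 5% of a gene's TPM. Percent spliced in was computed from deposited TPM for exons whose spanning transcripts averaged 5 TPM or more and whose mean inclusion lay between 2% and 98%, and tested by limma 3.58.1 on the logit scale with an offset of 0.01; a call also needed a change of 10 points. Inclusion therefore rests on Salmon's split of reads among annotated transcripts, not on junction reads.

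Named with values were members called between KO and WT, the 8 called members with the largest change in each direction of each WT step at a mean of at least 10 CPM, the 2 most abundant members of each role, and all paralog sets. The members and lists were chosen with earlier results of these data known, and the KO steps and the usage and exon tests between populations were added after seeing the data. Replicates of a group differed beyond sampling noise. The labels call them biological replicates. The scripts were tested on simulated data. Alternatives were DESeq2 1.42.0, limma-voom, other scalings, no filter, fits of the compared libraries only, a replicate block, and each replicate left out.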

Additional observations from a re-analysis of the deposited data

How the results depend on the processing

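Between KO and WT in HSC, DESeq2 called 1 member and the fit without a filter on low counts also 1, Eif3k in both, and leaving out single replicates gave 0 to 2. In preCFU-E the fit of the compared libraries alone called 2, and leaving out replicates gave 0 there and in preMegE. The interaction between preMegE and HSC had 1 call in DESeq2, Eif3g, and 0 to 1 without single replicates; the other interaction had 0. For transcript usage in HSC, leaving out replicates gave 0 to 2 calls, and in preMegE 0 to 1. Cassette exons in HSC gave 1 call with an offset of 0.05 and 0 to 2 without single replicates.

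Counts of members called without single replicates were 47 to 49 for WT preMegE over WT HSC, 36 to 44 for WT preCFU-E over WT preMegE, 41 to 46 for preMegE KO over HSC KO and 42 to 48 for preCFU-E KO over preMegE KO. In the first WT step, usage calls were 17 with limma's diffSplice and 6 to 7 without single replicates, and exon calls were 8 with an offset of 0.05 and 2 to 6 without single replicates. The shares of all genes and exons called under these alternatives are not given here, so the counts only show how calls of members moved. In the second WT step, usage calls were 1 with limma's diffSplice, Eif5, and 0 to 1 without single replicates. The first-step change of Eif1 reversed to -0.0259 with length-scaled counts; the alternative changes only the scaling for transcript length.

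Replicate numbers gave no clear pairing of KO with WT libraries within a population. Correlations of same-numbered deviations were between -0.0381 and 0.143, and in preMegE they were 0.143, 0.0125 and 0.0857. Pairing between populations was not examined. With the replicate as a block, 0 members were called between KO and WT in each population, 49 and 45 in the WT steps, and transcript usage in HSC gave 1 call, Eif4g1; the causes of these differences were not tested. Changes of low-count members such as Eif2b4 are limited by depth.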
